A study of Mus musculus with 14 samples.

Results

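The cell cycle and DNA replication genes were examined in the ovary and uterus of aged mice. They were 42 genes of the 21853 in the expression table, chosen by name as a list of genes that proliferating cells use to copy and divide their chromosomes, and all 42 were found by symbol. RNA-seq libraries came from 28-week-old female C57BL/6J mice in an old control (OC) group of 3 mice and an old treatment (OT) group of 4 mice. The OT group received conditioned medium of human amniotic membrane-derived mesenchymal stem cells (AMSC-CM), pooled from several donors, by tail vein in 6 injections 4 days apart, and the OC group received saline. Before that, all of the mice had been given PMSG and then hCG, gonadotropins that stimulate the follicles and trigger ovulation, at 10 IU each and 48 h apart. The ovary and the uterus of each mouse gave 1 library each, 14 libraries in all. The RNA came from tissue with its cell types mixed. The number of dividing cells, the RNA per dividing cell and RNA from cells that do not divide therefore cannot be told apart.

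A dividing cell runs through an ordered program. At the passage from G1 to S phase, E2F1 and cyclin E switch on the genes of DNA replication. CDC6 and CDT1 load the MCM helicase onto replication origins, CDC45 and the GINS complex activate it, PCNA clamps the polymerases to DNA, and TYMS, TK1, RRM1 and RRM2 make the nucleotides. Later, in G2 and mitosis, CDK1 with cyclins A and B, the Polo and Aurora kinases, the spindle motors and the kinetochore proteins separate the chromosomes, and CDC20 and UBE2C target the mitotic cyclins for destruction. In the adult ovary the granulosa cells of growing follicles are the main dividing population. In the adult uterus, division in the epithelium and the stroma follows the ovarian steroids through the estrous cycle. The 42 genes were divided by role into 18 of G1/S and S phase and 24 of G2 and mitosis.

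The timing of these genes is set in part through their promoters. Genes of G1/S and S phase often carry an E2F site, and genes of G2 and mitosis a CHR element beside CCAAT boxes. Promoters from RefSeq on GRCm38.p6, of 250 bases before and 50 bases after each gene's start, were given for 35 of the 42 genes. A CHR, searched as TTTGAA or TTCGAA, was found in 16 of 20 promoters of the G2 and mitosis genes (80.0%), in 3 of 15 of the G1/S and S phase genes (20.0%) and in 19.4% of all 27025 promoters. A CCAAT box, searched as CCAAT, was found in 85.0%, 60.0% and 37.9% of the same sets. An E2F site, searched as TTTCCCGC, TTTGGCGC, TTTCGCGC or TTTGCCGC, was found in 1 of 20 promoters of the G2 and mitosis genes (5.0%), in 6 of 15 of the G1/S and S phase genes (40.0%) and in 2.3% of all promoters. Both strands were searched and overlapping matches were counted separately. These matches are letters in a window and not proven binding sites. The promoters below show both classes. Cdk1, Cdc20 and Ccnb2 were at least 2-fold higher in the ovary than in the uterus, Mcm5 differed less, and Mcm6 differed little between the tissues. Each runs 5′ to 3′ on the strand of its gene over the 250 bases before the RefSeq start, without the bases that lie in an annotated exon, and the capitals mark these motifs on either strand.
Cdk1 (chr10:69352939-69353162, minus strand): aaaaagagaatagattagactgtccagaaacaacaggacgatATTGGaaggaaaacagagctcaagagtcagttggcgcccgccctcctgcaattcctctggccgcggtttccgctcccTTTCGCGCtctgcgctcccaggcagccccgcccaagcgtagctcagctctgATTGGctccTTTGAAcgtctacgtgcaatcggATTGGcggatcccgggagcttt
Cdc20 (chr4:118437353-118437593, minus strand): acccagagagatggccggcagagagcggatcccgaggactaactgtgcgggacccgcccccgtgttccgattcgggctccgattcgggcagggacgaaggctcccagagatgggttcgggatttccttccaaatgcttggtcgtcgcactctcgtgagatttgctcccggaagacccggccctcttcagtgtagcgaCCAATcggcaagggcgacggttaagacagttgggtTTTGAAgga
Ccnb2 (chr9:70421555-70421804, minus strand): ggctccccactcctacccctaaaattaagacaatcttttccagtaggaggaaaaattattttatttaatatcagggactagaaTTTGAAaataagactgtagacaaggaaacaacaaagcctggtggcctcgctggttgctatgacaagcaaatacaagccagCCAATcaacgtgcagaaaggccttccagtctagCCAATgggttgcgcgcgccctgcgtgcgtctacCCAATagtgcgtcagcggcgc
Mcm5 (chr8:75109259-75109508, plus strand): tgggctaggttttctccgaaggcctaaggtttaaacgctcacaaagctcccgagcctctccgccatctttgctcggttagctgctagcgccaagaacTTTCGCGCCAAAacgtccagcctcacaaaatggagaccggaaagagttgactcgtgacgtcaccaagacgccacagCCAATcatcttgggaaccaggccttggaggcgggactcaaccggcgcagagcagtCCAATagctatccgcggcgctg
Mcm6 (chr1:128359706-128359955, minus strand): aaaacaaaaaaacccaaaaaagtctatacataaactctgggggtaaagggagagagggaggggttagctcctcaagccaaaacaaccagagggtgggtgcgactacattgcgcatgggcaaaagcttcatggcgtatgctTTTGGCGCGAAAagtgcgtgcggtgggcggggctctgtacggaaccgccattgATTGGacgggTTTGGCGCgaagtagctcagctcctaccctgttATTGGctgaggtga
Cdk1 held 3 CCAAT boxes, 1 CHR and 1 E2F site. Cdc20 held 1 CCAAT box and 1 CHR, and Ccnb2 held 3 CCAAT boxes and 1 CHR. Mcm5 held 2 CCAAT boxes and 2 overlapping E2F matches. Mcm6 held 2 CCAAT boxes and 3 E2F matches, and neither Mcm promoter held a CHR in this window.

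The values were FPKM, which count sequenced fragments per length of transcript and per library size, so that levels can be compared between genes. How deeply a library was sequenced cannot be read from them. The total FPKM ranged from 374816 to 397644 in the ovaries and from 425875 to 577494 in the uteruses, where OT1 was highest, while the 75th percentile lay between 15.3 and 15.8 FPKM in every library. The tissue labels were checked against marker genes. The summed level of 7 granulosa cell markers was 377 to 871 FPKM in the ovaries and 4.21 to 18.8 FPKM in the uteruses, and that of 6 smooth muscle markers was 874 to 2744 FPKM in the ovaries and 7753 to 14470 FPKM in the uteruses. Markers of other tissues moved with the groups. The sum of 8 adipocyte markers was 77.7 to 260 FPKM in the OC uteruses and 1218 to 11410 FPKM in the OT uteruses, with all 8 passing the study's cutoffs, and it was 163 to 276 FPKM in the OC ovaries and 210 to 1749 FPKM in the OT ovaries, with 4 of 8 passing. Of all genes tested, 2.9% passed these cutoffs in the uterus and 0.451% in the ovary. The sum of 10 stratified epithelium markers was 3.10 to 14.7 FPKM in the OC uteruses and 50.6 to 943 FPKM in the OT uteruses, with 8 of the 9 tested passing. That of 7 B and plasma cell markers was 7.64 to 10.98 FPKM in the OC uteruses and 16.7 to 119 FPKM in the OT uteruses, with 5 of 7 passing. In the ovaries it was 9.09 to 16.0 FPKM in the OC group and 10.5 to 118.5 FPKM in the OT group, with 0 of 7 passing, and OT2 was the highest in both tissues. The smooth muscle sum was also higher in every OT uterus, at 7753 to 9086 FPKM in the OC and 9555 to 14470 FPKM in the OT group, with 0 of 6 markers passing. In the ovaries, 4 oviduct markers summed to 460 to 979 FPKM. The part of these cells in the results below was not tested.

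All 42 genes were expressed in both tissues, with a mean of at least 0.5 FPKM in each. Pcna was the highest in both, at 41.2 ± 2.196 FPKM (SD, n = 7) in the ovary and 32.1 ± 11.7 FPKM (SD, n = 7) in the uterus. Mcm7 followed at 22.6 ± 2.25 FPKM in the ovary and 19.1 ± 3.46 FPKM in the uterus (SD, n = 7 each). In the ovary, the next were Top2a, which encodes the topoisomerase that untangles sister chromatids, at 19.5 ± 2.73 FPKM, and cyclin A gene Ccna2 at 16.7 ± 2.15 FPKM (SD, n = 7 each). The SDs of these neighbours overlapped, but Top2a was above Ccna2 within every ovary library. In the uterus, the next after Mcm7 were S phase genes, Rrm1 at 13.9 ± 2.04 FPKM and Mcm6 at 13.1 ± 2.21 FPKM (SD, n = 7 each). They did not differ beyond their spread. The lowest in both tissues was the cyclin E gene Ccne1, at 1.17 ± 0.300 FPKM in the ovary and 0.838 ± 0.339 FPKM in the uterus (SD, n = 7 each).

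**Figure D1:**
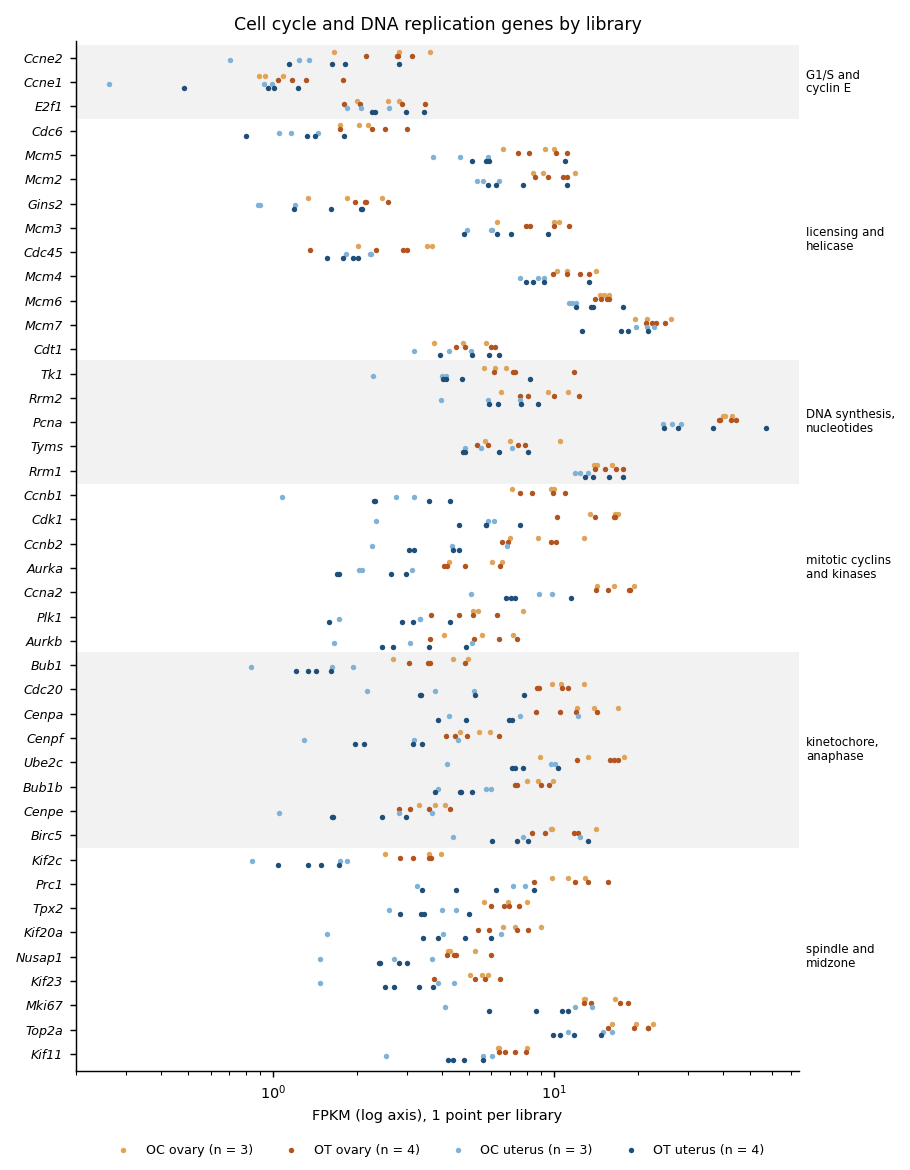
FPKM of the 42 genes in each of the 14 libraries on a log axis, 1 point per library, with the genes grouped by role and coloured by group and tissue. For 12 of the 24 mitotic genes all ovary points lie to the right of all uterus points, as for Ccnb1 at 7.10 to 10.98 FPKM against 1.08 to 4.29 FPKM. For the other mitotic genes the points of the tissues overlap, and OC and OT points of one tissue are mixed.

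To compare the level of the program between the tissues, the ovaries were set against the uteruses over both groups. The log2 fold change was above 0, higher in the ovary, for all 42 genes, against 50.4% of the 14557 genes tested. An adjusted p under 0.05 was reached by 34 of the 42, all higher in the ovary, against a background of 26.8% of all genes, and the cutoff of 2-fold was passed in addition by 9, against 9.59% of all genes. All 9 were genes of G2 and mitosis. With a pseudocount of 1 in place of 0.1, the number past both cutoffs was 3, namely Ccnb1 (1.48), Cdk1 (1.37) and Cdc20 (1.17), and the other 6, Ccnb2, Ccna2, Aurka, Bub1, Kif2c and Prc1, lay between 0.84 and 1.00 on the log2 scale. The median log2 fold change was 0.91 for the 24 genes of G2 and mitosis and 0.49 for the 18 genes of G1/S and S phase, beside 0.00 for all genes, and the difference between the phases was not tested. All 7 ovaries lay above all 7 uteruses for 12 genes, each of G2 and mitosis, and for 0 of 18 of G1/S and S phase, where 13.5% of all genes had their ovaries above their uteruses. These comparisons were made by limma on log2(FPKM + 0.1), with Benjamini-Hochberg adjustment over all genes.

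Among the mitotic cyclins and kinases, all 7 passed the adjusted p and 5 passed the 2-fold cutoff. Ccnb1 (chr13:100778650-100786570 of GRCm38, minus strand, 6 exon blocks), the cyclin B that activates CDK1 at the entry into mitosis, had a lowest, median and highest level of 7.10, 9.80 and 10.98 FPKM in the ovaries and of 1.08, 2.74 and 4.29 FPKM in the uteruses. The ranges did not overlap, and Ccnb1 had the largest difference of the 42 genes (log2 fold change 1.79, SE 0.23, adjusted p = 2.51e-05). It has near-identical pseudogenes outside the table, such as Ccnb1-ps at 99.2% identity over 1287 bases, so that its level is less certain. The same holds for Pcna, with Pcna-ps2 at 99.2% identity over 781 bases, and for Mcm7, Cdc6, Rrm2 and Tyms. Tyms also matches protein-coding genes of the table over short stretches, such as Jakmip2 at 97.5% identity over 360 bases. The match of Mki67, to the pseudogene Gm44521, spans only 216 bases, where Mki67 has 10061 exon bases. Cdk1 (chr10:69335146-69352938, minus strand), the kinase itself, had 10.3, 16.4 and 16.9 FPKM in the ovaries and 2.32, 5.75 and 7.58 FPKM in the uteruses as its lowest, median and highest level, again without overlap (log2 fold change 1.53, SE 0.21, adjusted p = 3.81e-05). Ccnb2, a second cyclin B, had 6.55, 8.76 and 12.8 FPKM in the ovaries and 2.26, 4.36 and 6.81 FPKM in the uteruses (1.14 on the log2 scale, adjusted p = 0.00102). Here the ranges overlapped, since the OC2 uterus, at 6.81 FPKM, was above 1 ovary.

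Aurka, which encodes the Aurora kinase of the centrosomes, and Ccna2 had non-overlapping ranges, at 4.07 to 6.53 against 1.69 to 3.14 FPKM for Aurka and at 14.2 to 19.4 against 5.06 to 11.5 FPKM for Ccna2 (log2 fold changes 1.14 and 1.08). Plk1, the Polo kinase, and Aurkb, the Aurora kinase of the centromere, were higher in the ovary by less than 2-fold, at 5.42 against 2.897 FPKM and 5.63 against 3.35 FPKM (log2 fold changes 0.95 and 0.79, adjusted p = 0.00337 and 0.0193).

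Of 8 genes of the kinetochore, the spindle checkpoint and anaphase, 7 were higher in the ovary at an adjusted p under 0.05. Bub1, a kinase of the checkpoint that delays anaphase, had a lowest, median and highest level of 2.68, 3.61 and 4.94 FPKM in the ovaries and of 0.838, 1.43 and 1.92 FPKM in the uteruses (log2 fold change 1.39, SE 0.20, adjusted p = 6.13e-05). Cdc20, the activator of the anaphase-promoting complex, had 8.73, 10.6 and 12.8 FPKM in the ovaries and 2.16, 3.78 and 7.84 FPKM in the uteruses (1.35, SE 0.22, adjusted p = 0.00017). Neither gene overlapped between the tissues. The centromeric histone gene Cenpa, the kinetochore genes Cenpf and Cenpe, Ube2c, which encodes the ubiquitin-conjugating enzyme of the anaphase-promoting complex, and the checkpoint kinase gene Bub1b had log2 fold changes of 0.97, 0.93, 0.69, 0.85 and 0.82. Birc5, which encodes survivin of the chromosomal passenger complex, was the exception, at 8.35 to 14.1 FPKM in the ovaries and 4.36 to 13.2 FPKM in the uteruses (log2 fold change 0.43, 95% interval -0.06 to 0.92, adjusted p = 0.13).

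All 9 genes of the spindle, the chromosomes and the midzone were higher in the ovary at an adjusted p under 0.05. Kif2c, a kinesin that takes microtubule ends apart, was at 2.504 to 3.97 FPKM in the ovaries and at 0.842 to 1.84 FPKM in the uteruses (log2 fold change 1.19, SE 0.19, adjusted p = 0.000157). Prc1, which bundles the microtubules of the midzone, was at 8.53 to 15.6 FPKM in the ovaries and at 3.25 to 8.49 FPKM in the uteruses (1.06, SE 0.24, adjusted p = 0.00195). The highest uterus was just under the lowest ovary. The differences of Tpx2 and Nusap1, which build the spindle, of the kinesins Kif20a, Kif23 and Kif11, of Top2a, and of the proliferation marker Mki67 lay between 0.60 and 0.89 on the log2 scale.

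**Figure D2:**
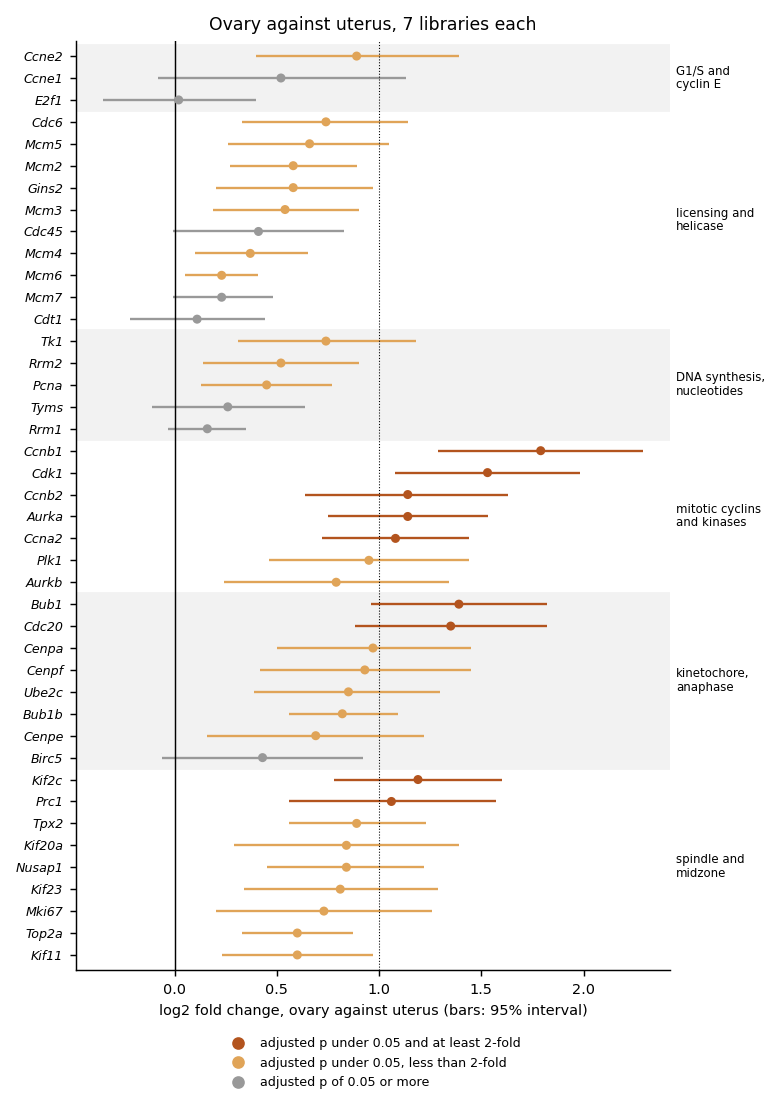
Log2 fold change of each of the 42 genes in the ovary against the uterus, 7 libraries each, with 95% intervals as bars, a solid line at 0 and a dotted line at 2-fold. Points run from 0.02 for E2f1 to 1.79 for Ccnb1, and the 9 genes past both cutoffs are mitotic.

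The S phase genes differed less. Among 10 genes of licensing and the helicase, 7 were higher in the ovary at an adjusted p under 0.05, from Cdc6, which helps load the helicase (mean 2.203 against 1.28 FPKM, log2 fold change 0.74), to Mcm6 (15.0 against 13.1 FPKM, 0.23, adjusted p = 0.031). The 7 included Gins2, Mcm2, Mcm3, Mcm4 and Mcm5. Cdt1, Mcm7 and Cdc45 did not pass, at log2 fold changes of 0.11, 0.23 and 0.41. Cdt1 had a 95% interval of -0.22 to 0.44, which excludes a 2-fold difference. Among 5 genes of DNA synthesis and nucleotides, Tk1, Rrm2 and Pcna passed (0.74, 0.52 and 0.45), and Tyms and Rrm1 did not (0.26 and 0.16). Of the G1/S regulators, Ccne2 passed (2.70 against 1.52 FPKM, 0.89, adjusted p = 0.00537). Ccne1 did not (0.52), and E2f1, the transcription factor itself, was nearly level between the tissues at 2.510 ± 0.597 FPKM in the ovaries and 2.496 ± 0.558 FPKM in the uteruses (SD, n = 7 each, log2 fold change 0.02, 95% interval -0.35 to 0.40).

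A larger set of cell cycle genes outside the 42 was also mostly higher in the ovary. Of 57 further genes of G2 and mitosis tested, 43 were higher and 2 lower in the ovary at an adjusted p under 0.05 (against 26.8% higher and 26.1% lower of all genes), and 8 were higher by at least 2-fold (against 9.59% of all genes). Cks2, which encodes a CDK-binding protein, had the largest difference, at 13.4 to 22.1 FPKM in the ovaries and 2.27 to 7.22 FPKM in the uteruses (log2 fold change 1.77, adjusted p = 5.21e-05). It was followed by Spag5, Nek2, Kif4, Cdc25c and Troap (1.03 to 1.26). Of 50 further S phase genes, 29 were higher and 3 lower, read against the same 26.8% and 26.1%, with medians of 0.72 for the further G2 and mitosis genes and 0.46 for the further S phase genes. Only 4 of the 50 passed the 2-fold cutoff, a share below the 9.59% of all genes. They were Brca1 and Gmnn (both 1.23), Chek1 (1.09) and Exo1 (1.05), which encode a DNA repair protein, the inhibitor of CDT1, a checkpoint kinase and a repair nuclease.

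Leaving out the OC1 uterus, whose mitotic genes were low, lowered the number past both cutoffs from 9 to 6, and leaving out the OT1 uterus as well lowered it to 5, which were Ccnb1 (1.5), Cdk1 (1.31), Bub1 (1.23), Cdc20 (1.10) and Aurka (1.04). Within the OC libraries alone 9 genes passed, and within the OT libraries alone 10 did.

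AMSC-CM was given to counter the ageing of the reproductive organs, and the next question was whether the program differed between the OC and OT groups. In the ovary no member was called. At the study's cutoffs, a change of at least 2-fold with an unadjusted p no higher than 0.05, 0 of the 42 genes passed (0.451% of the 14415 genes tested did), and 0 of 42 reached an unadjusted p of at most 0.05 by limma (4.51% of all genes). With Benjamini-Hochberg adjustment, no gene of the whole table passed. The median log2 fold change of the 42 was 0.00, beside -0.01 for all genes, with 22 above 0 (52.4%, against 46.6% of all genes) and 20 below. It was 0.07 for the genes of G1/S and S phase and -0.07 for those of G2 and mitosis. The signs of these medians rested on single ovaries. Without the OC2 ovary they were -0.03 and -0.20, without OC3 0.19 and 0.08, and without OT4 0.16 and 0.04. The number above 0 ran from 9 of the 42 (without OC2) to 30 (without OT4). No member had its OT ovaries all above or all below its OC ovaries, against 2.78% and 3.13% of all genes.

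Cenpa came nearest to the cutoff of p. Its levels were 12.1, 16.9 and 13.9 FPKM in the OC ovaries and 10.5, 12.0, 14.3 and 8.64 FPKM in the OT ovaries (log2 fold change -0.34, SE 0.18, adjusted p = 0.997). The groups overlapped. The largest difference above 0 was in Ccne1, at 1.09, 0.941 and 0.890 FPKM in the OC ovaries and 1.17, 1.77, 1.05 and 1.32 FPKM in the OT ovaries (0.39, SE 0.25, adjusted p = 0.997). The OT3 ovary was below the OC1 ovary here. The largest below 0 was in Cdc45, at 3.52, 2.02 and 3.68 FPKM in the OC ovaries and 2.91, 2.99, 2.34 and 1.35 FPKM in the OT ovaries (-0.36, SE 0.32). Pcna was at 41.3 ± 1.54 FPKM in the OC ovaries and 41.2 ± 2.84 FPKM in the OT ovaries (SD, n = 3 and n = 4), and Mcm6 was at 15.1 ± 0.615 and 15.0 ± 0.746 FPKM. The 95% interval reached a 2-fold change for 1 gene of the 42, Cdc45, with an interval of -1.08 to 0.37.

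Single ovaries stood apart in these genes. The OC3 ovary was the highest for 13 of the 24 genes of G2 and mitosis, and the OT4 ovary was the lowest for 13 of them. The OC2 ovary was the lowest for 10 of the 18 genes of G1/S and S phase. How often each ovary or uterus was the extreme one over all genes was not counted. The median log2 difference from the OC mean was 0.22 for the G2 and mitosis genes in the OC3 ovary and -0.34 in the OT4 ovary. The summed granulosa markers were 382 FPKM in the OC2 ovary, 377 FPKM in the OT2 ovary and 564 to 871 FPKM in the other 5, and their part in these differences was not tested.

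**Figure D3:**
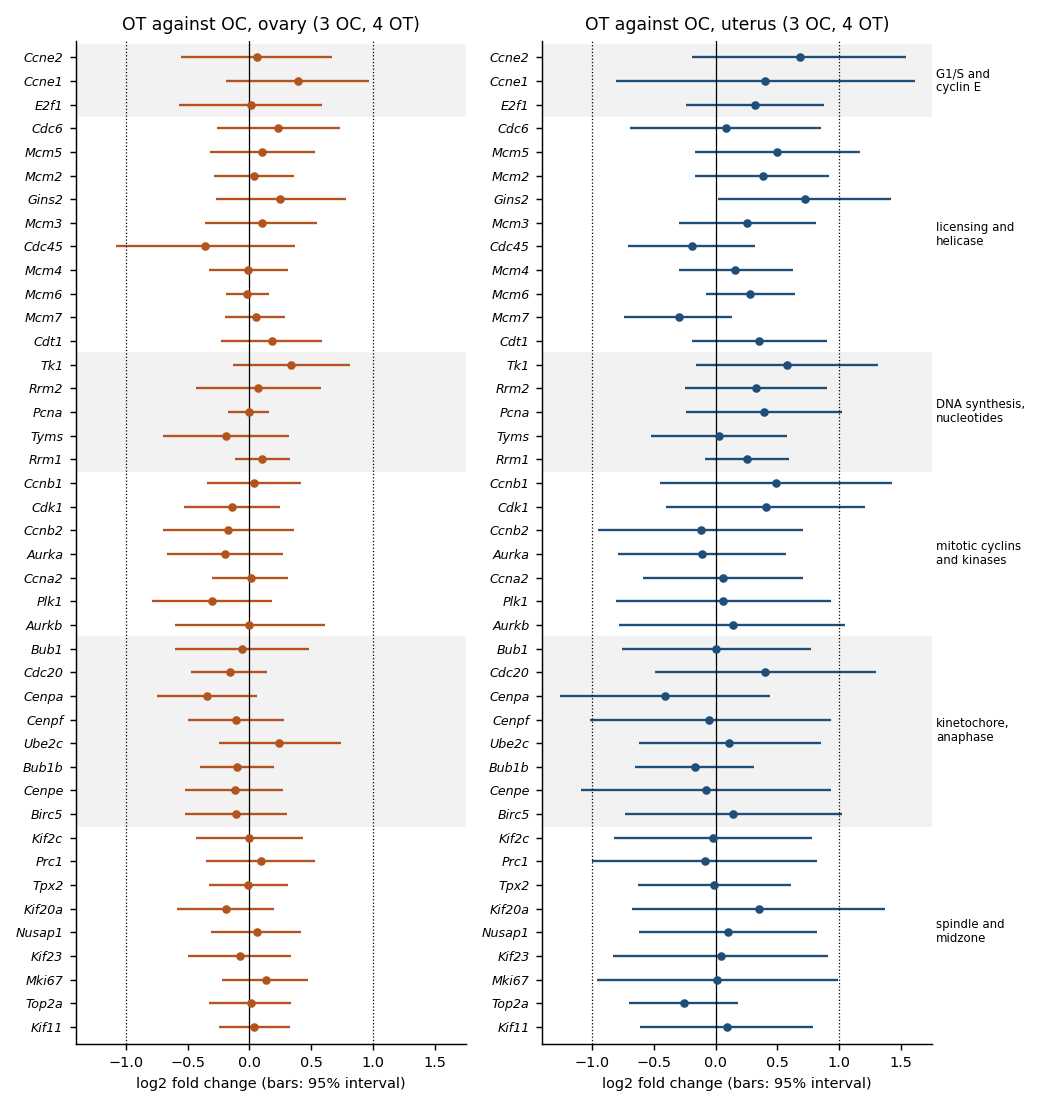
Log2 fold change of each of the 42 genes in the OT group against the OC group, with 95% intervals as bars, in the ovary on the left and the uterus on the right, and dotted lines at 2-fold. The points range from -0.36 to 0.39 for ovaries and from -0.41 to 0.72 for uteruses, and the uterus intervals are wider.

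In the uterus, 0 of the 42 genes passed the study's cutoffs (2.9% of the 14151 genes tested did), and 1 of 42 reached an unadjusted p of at most 0.05 (8.2% of all genes). With Benjamini-Hochberg adjustment no gene of the whole table passed. The median log2 fold change of the 42 was 0.11, beside 0.01 for all genes, and 30 were above 0, against 51.1% of all genes. It was 0.33 for the 18 genes of G1/S and S phase, 16 of which were above 0, and 0.03 for the 24 of G2 and mitosis, 14 of which were above 0. Without the OC1 uterus 17 of the 42 were above 0, with a median of -0.20, and without the OT3 uterus 22 were, with a median of 0.01. The 95% interval reached a 2-fold change for 15 of the 42, so that a change of that size was not excluded for these genes.

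The gene with an unadjusted p under 0.05 was Gins2 (chr8:120578633-120589304 of GRCm38, minus strand), a subunit of the GINS complex. It was at 1.20, 0.889 and 0.904 FPKM in the OC uteruses and at 2.07, 1.61, 2.06 and 1.19 FPKM in the OT uteruses (log2 fold change 0.72, SE 0.30, unadjusted p = 0.0445 by limma, adjusted p = 0.599). The OT4 uterus lay just under the OC1 uterus, and the other 3 OT uteruses were higher than all of the OC uteruses. Without the OT1 uterus the log2 fold change was 0.63 and the unadjusted p by limma was 0.0843. Exons of Gse1 on the other strand cover 67.3% of the exon bases of Gins2, which strand-specific quantification is meant to separate.

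Mcm6 was the one gene whose groups did not overlap, where the OT group was above the OC group for 6.46% of all genes and below it for 5.48%. It was at 11.3, 11.6 and 12.0 FPKM in the OC uteruses and at 17.7, 13.8, 13.5 and 12.0 FPKM in the OT uteruses (log2 fold change 0.28, SE 0.16, adjusted p = 0.625). The gap was between 11.98 FPKM in the OC3 uterus and 11.99 FPKM in the OT4 uterus. Pcna was at 28.3, 26.3 and 24.5 FPKM in the OC uteruses and at 56.9, 36.8, 27.6 and 24.7 FPKM in the OT uteruses (0.39, adjusted p = 0.642). The OT1 and OT2 uteruses were the high ones, and the groups overlapped. Ccne2, Tk1 and Mcm5 had log2 fold changes of 0.68, 0.58 and 0.50, with adjusted p = 0.625 for each.

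Single uteruses also stood apart. The OC1 uterus was the lowest of the 7 for 19 of the 24 genes of G2 and mitosis. The median log2 difference of these genes from the OC mean was -0.78 in OC1, 0.47 in OC2 and 0.23 in OC3, whereas that of the G1/S and S phase genes was -0.05, 0.03 and 0.05. Mki67 shows the pattern, with 4.08, 13.7 and 11.9 FPKM in the OC uteruses and 5.90, 10.7, 11.2 and 8.62 FPKM in the OT uteruses. The OC1 uterus was low, and so was OT1. The 4 oviduct markers summed to 170, 55.5 and 41.7 FPKM in the OC1, OC2 and OC3 uteruses, and to 4.63 to 94.6 FPKM in the OT uteruses. For 4 endothelium markers the sums were 63.2, 99.5 and 100.6 FPKM, and 61.4 to 81.7 FPKM in the OT uteruses. The part of these cells in the OC1 levels was not tested. Top2a was at 11.3, 16.1 and 14.9 FPKM in the OC uteruses and at 9.92, 10.5, 14.7 and 11.8 FPKM in the OT uteruses. The median SD on the log2 scale of the G2 and mitosis genes was 0.70 over the OC uteruses and 0.23 over the OC ovaries, beside 0.17 and 0.14 for all genes. That of the G1/S and S phase genes was 0.22 and 0.25.

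The OT1 uterus was the highest of the 7 for 12 of the 18 genes of G1/S and S phase and for 0 of the 24 of G2 and mitosis. For how many of all genes OT1 was the highest was not counted. Over the OT uteruses the median SD on the log2 scale was 0.36 for the G1/S and S phase genes and 0.35 for the G2 and mitosis genes. For all genes it was 0.33, so that the spread of these genes was close to that of all genes. The median log2 difference from the OC mean was 0.65, 0.23, 0.39 and 0.03 for the G1/S and S phase genes in OT1, OT2, OT3 and OT4, and -0.22, -0.05, 0.38 and 0.07 for the G2 and mitosis genes. In the same order, the adipocyte marker sums were 11410, 1260, 2248 and 1218 FPKM. OT1 was thus highest both in S phase genes and in adipocyte markers, and also in red cell markers, whose sum was 1233 FPKM in OT1 and 137 to 445 FPKM in the other 6 uteruses. The part of these cells was not tested. Without the OC1 uterus the median of the G2 and mitosis genes fell from 0.03 to -0.30, with 2 of 24 above 0, and that of the G1/S and S phase genes was 0.23. The median of the G2 and mitosis genes was -0.11 without the OT3 uterus and 0.29 without the OC2 uterus, and that of the G1/S and S phase genes was 0.20 without the OT1 uterus. Without the OC1 and OT1 uteruses the medians were -0.24 and 0.12, and 0 of the 42 genes passed the cutoffs.

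**Figure D4:**
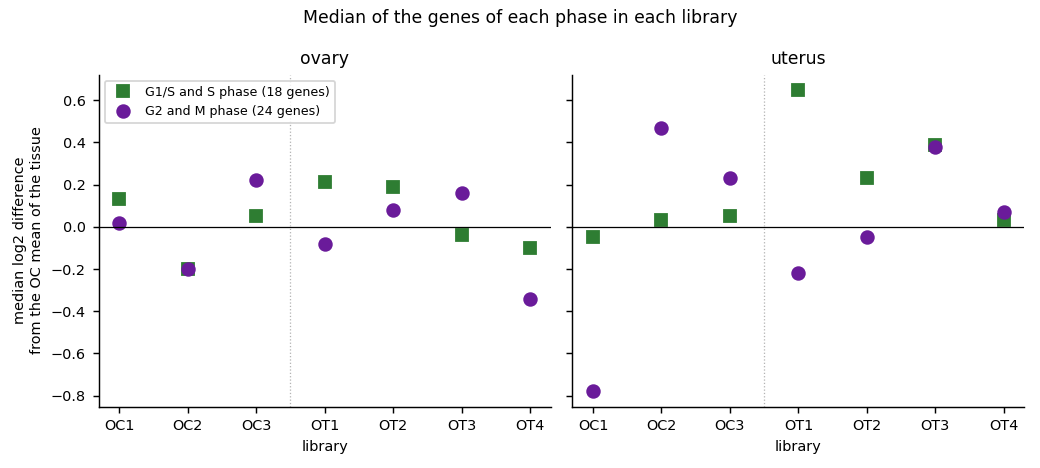
Median log2 difference from the OC mean of the tissue for the 18 genes of G1/S and S phase (squares) and the 24 of G2 and mitosis (circles), 1 pair of points per library. The circle of the OC1 uterus lies at -0.78 and the square of the OT1 uterus at 0.65, whereas the ovaries lie between -0.34 and 0.22.

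The MCM subunits form 1 ring with a copy of each, and their levels were compared within each library. Mcm7 was above the mean of Mcm2 to Mcm6 by 0.84 to 1.27 on the log2 scale in the ovaries and by 1.20 to 1.69 in 6 of the 7 uteruses. In the OT1 uterus the difference was 0.04. There Mcm7 was at 12.6 FPKM, against 17.3 to 22.7 FPKM in the other uteruses, while Mcm2, Mcm3, Mcm4, Mcm5 and Mcm6 each had their highest uterus level, at 11.2, 9.57, 13.3, 10.97 and 17.7 FPKM. Mcm7 was 1 of 2 G1/S and S phase genes below 0 in the OT group of the uterus, at 19.7, 22.7 and 21.5 FPKM in the OC and 12.6, 18.4, 21.7 and 17.3 FPKM in the OT uteruses (log2 fold change -0.30, SE 0.19, adjusted p = 0.627, and -0.16 without OT1). The other was Cdc45. Mcm7 has a pseudogene outside the table, Gm5487, at 97.7% identity over 2157 bases. The microRNA genes Mir25 and Mir93 overlap the exon bases of Mcm7 on the same strand when all of its annotated transcripts are pooled. They need not lie in an exon of its main transcript.

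**Figure D5:**
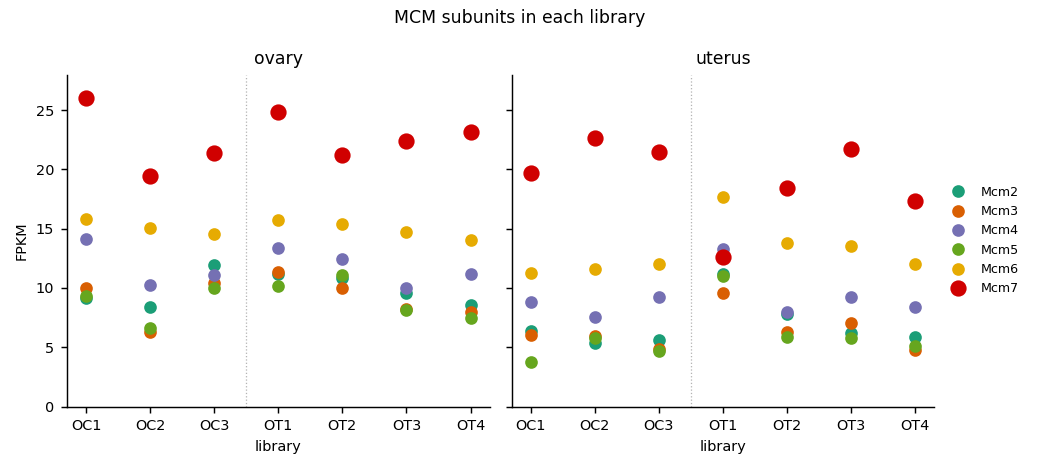
FPKM of the MCM subunits Mcm2 to Mcm7 in each ovary and uterus library, with OC and OT separated by a dotted line. Mcm7 is the top point in 13 libraries, and in the OT1 uterus it is at 12.6 FPKM, under Mcm6 and Mcm4.

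The OT against OC change was also compared between the tissues. For 0 of the 42 genes did it pass the study's cutoffs (1.83% of the 14557 genes tested did), and 0 of 42 reached an unadjusted p of at most 0.05 by limma (5.12% of all genes). It was more positive in the uterus for 32 of the 42, against 52.1% of all genes, with a median of 0.14 on the log2 scale. This count and median depended on single libraries. Without the OC1 uterus the count was 17 and the median -0.08, without the OT4 ovary 23 and 0.01, without the OC3 ovary 24 and 0.05, and without the OT3 uterus 23 and 0.07, whereas without the OC2 uterus they were 39 and 0.29 and without the OC2 ovary 35 and 0.27. Mcm6 (0.29, SE 0.16) and Mcm7 (-0.35, SE 0.22) had the smallest p, with adjusted p = 0.844 for both. Without the OC1 uterus the median of the G2 and mitosis genes in this comparison turned from 0.05 to -0.29, and it was -0.06, -0.03 and -0.05 without the OC3 ovary, the OT4 ovary and the OT3 uterus.

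Among the further cell cycle genes, 0 of 144 passed the study's cutoffs in the ovary (0.451% of all genes) and 1 of 143 in the uterus (2.9% of all genes). At an unadjusted p of at most 0.05 by limma there were 7 and 12, shares near the 4.51% and 8.2% of all genes. The gene that passed was Cdkn2c, which encodes p18, an inhibitor of CDK4 and CDK6 and so a brake on G1. It was at 16.7, 19.3 and 20.6 FPKM in the OC uteruses and at 76.9, 36.3, 38.9 and 29.8 FPKM in the OT uteruses (log2 fold change 1.17, SE 0.30, adjusted p = 0.485). The groups did not overlap, and OT1 was the highest. In the ovary it was at 22.1, 18.6 and 20.9 FPKM in the OC group and at 29.1, 33.7, 21.2 and 23.3 FPKM in the OT group (0.36, adjusted p = 0.997). The adipocyte marker sum was also highest in the OT1 uterus, and its part in the Cdkn2c level was not tested. The further S phase genes had a median log2 fold change of 0.23 in the uterus, with 43 of 50 above 0 (against 51.1% of all genes), and 0.04 in the ovary. The further G2 and mitosis genes had 41 of 57 above 0 in the uterus, with a median of 0.10. The median log2 difference of the 58 listed from the OC mean was -0.52, 0.40 and 0.11 in the OC1, OC2 and OC3 uteruses. In the OT1, OT2, OT3 and OT4 uteruses it was -0.04, 0.02, 0.45 and 0.15, so that OC1 was again the lowest. The median log2 difference of the further S phase genes from the OC mean was 0.33, 0.14, 0.28 and -0.0 in the OT1, OT2, OT3 and OT4 uteruses.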

How the data were processed

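The data were 14 RNA-seq libraries, from the ovary and uterus of 3 OC and 4 OT mice, placed in 4 groups by their labels. For each gene the authors deposited an FPKM, obtained from stranded, rRNA-depleted libraries by trimming with Skewer, mapping to mm10 with STAR 2.5 and quantifying with Cufflinks 2.2.1. The smallest FPKM above 0 is 1.03e-310 and values are not whole multiples of a step, so that fragment counts were not recovered and no interval of counting error is given. Among 21853 genes, 3380 had no signal in any library. Symbols and positions came from GENCODE M21 (GRCm38) by Ensembl identifier, and 42 of 42 members, 145 of 145 further cell cycle genes and 86 of 87 cell type markers were found.

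Genes averaging at least 0.5 FPKM in the libraries of a fit were fitted on log2(FPKM + 0.1) with limma 3.58.1 in R 4.3.3 (eBayes with a trend, two-sided tests), each tissue alone for OT against OC and all 14 libraries for the comparisons between tissues. The pseudocount understates the fold change of low genes. A gene was called when its log2 fold change was at least 1 in size, with an unadjusted p of at most 0.05 (the study's cutoffs, for OT against OC) or an adjusted p under 0.05 (between tissues). The study's test, Cuffdiff, needs the reads and was not run. All 42 members could be named, and from each further list the genes that were called, 6 at most for a comparison. The members and lists were chosen with earlier results of these data known. Ovary and uterus libraries of the same animal name were taken as 1 mouse, and their deviations from the group means correlated at 0.074 to 0.254. Those of different names in a group correlated at -0.118 to 0.06 (OC) and -0.235 to 0.248 (OT), so that the ranges overlapped and the match by name was not proven. An OC and an OT library with the same number come from separate mice. The fits were tested on simulated data with known changes. Promoters came from RefSeq, and exon overlaps and transcripts of at least 95% identity over 200 bases from GENCODE. Python 3.11.15 with pandas 2.3.3 and numpy 2.4.6 was used.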

Additional observations from a re-analysis of the deposited data

Results flagged for a closer look

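Among the groups of 4 OT libraries, 84 gene and tissue combinations were checked by Dixon's test for a library far from the others. Chance flags about 1 in 20, and 4 of the 84 were flagged, which is near that share. In the OT ovaries, Nusap1 was at 5.99 FPKM in OT3, against 4.18 to 4.48 FPKM in the other 3. In the OT uteruses, Ccna2 was at 11.5 FPKM in OT3, against 6.74 to 7.28 FPKM in the other 3. Mcm5 was at 10.97 FPKM in the OT1 uterus, against 5.12 to 5.87 FPKM in the other 3, and Tk1 was at 8.23 FPKM in the OT1 uterus, against 4.05 to 4.70 FPKM. Groups of 3 OC libraries were not checked.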

How the results depend on the processing

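The alternatives were pseudocounts of 1 and 0.01, no filter or a mean of at least 1 FPKM, scaling by median ratio or 75th percentile, robust eBayes, 1 fit of all 14 libraries, other call rules, replicate blocks and leaving out each library. In the ovary and for the difference between tissues 0 of the 42 genes were called under every one of them. In the uterus 1 was called at an unadjusted p of at most 0.05 with no fold cutoff. Its median log2 fold change ran from -0.20 (without OC1) to 0.31 (without OC2) when 1 library was left out, and was -0.13 without OC1 and OT1, a choice made after seeing the data. In the ovary that median ran from -0.12 (without OC2) to 0.11 (without OC3). Between ovary and uterus, 9 genes became 3 with a pseudocount of 1, 34 with an adjusted p under 0.05 and no fold cutoff, and 5 without the OC1 and OT1 uteruses, and ran from 6 (without the OC1 uterus) to 13 (without the OC2 uterus) when 1 library was left out. In a replicate block fit by number, without the unmatched OT4, 0 of the 42 genes were called in either tissue, and the medians were 0.08 for ovaries and 0.18 for uteruses. Deviations of same-numbered OC and OT libraries correlated at 0.045 to 0.331 in the ovary and -0.028 to 0.08 in the uterus, and the numbers were not read as pairs. The animal as a block left the number between tissues at 9 and changed no call.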

Other observations

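Inhibitors of the cell cycle and G1 regulators were found on both sides of the comparison between the tissues. Of 17 inhibitors of the cell cycle tested, 6 were higher and 5 lower in the ovary at an adjusted p under 0.05 by limma (against 26.8% and 26.1% of all genes), with a median log2 fold change of -0.10, and 4 were higher and 1 lower by at least 2-fold (against 9.59% and 10% of all genes). Cdkn2b, which encodes the inhibitor p15, was at 12.4 to 17.6 FPKM in the ovaries and 1.24 to 4.44 FPKM in the uteruses (2.58). Cdkn1b, which encodes p27, was at 121 to 145 FPKM in the ovaries and 51.3 to 66.9 FPKM in the uteruses (1.23). The other 2 higher in the ovary were Cdkn2a (1.62) and Tob1 (1.26), a member of an antiproliferative family. Cdkn1c, which encodes p57, was lower in the ovary, at 8.14 to 15.4 FPKM against 17.0 to 48.3 FPKM (-1.32). The OC1 uterus, with the lowest mitotic genes, had the highest Cdkn1c level, 48.3 FPKM. For the inhibitors as a list, the median log2 difference from the OC mean in that uterus was -0.14, with 7 of 17 above that mean. Any link to the mitotic genes was not tested. Of 20 G1 cyclins, kinases and pocket proteins, 6 were higher and 3 lower in the ovary, the 6 near the 26.8% of all genes, with a median of -0.05. Ccnd2, the cyclin D of granulosa cells, was the 1 of 20 past the 2-fold cutoff (against 9.59% of all genes), at 28.2 to 52.8 FPKM in the ovaries and 13.6 to 44.2 FPKM in the uteruses (1.05). That uterus range joins separate groups, at 14.4, 13.6 and 13.7 FPKM in the OC and 44.2, 19.7, 27.5 and 16.9 FPKM in the OT uteruses. The OT group was above the OC group in this way for 6.46% of all genes. The OT1 uterus lay within the ovary range, so that the tissues differed less in the OT group.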
